A study of Homo sapiens with 10 samples.

Results

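Chromosome 19 of the human genome carries 246 protein-coding genes whose symbol is ZNF followed by digits and at most 1 letter, out of 19970 protein-coding genes examined on 23 chromosomes. These 246 genes were chosen by name and chromosome in GENCODE release 44, without use of any measured value. They were examined for the retinoblastoma protein Rb at their promoters. The assay was CUT&RUN, where a nuclease tethered to an antibody cuts out the DNA around a chromatin protein. It was run in the OVCAR-3 and Kuramochi lines, both derived from high-grade serous ovarian cancer, established in culture and given the genotype label WT. Cells received either INX-315, which inhibits CDK2, at 300 nM or a matched amount of the solvent DMSO, for 2 days in both arms. Each of these 4 groups had 2 Rb libraries, and 1 IgG2a control library per line came from DMSO-treated cells, and served for both arms of that line. The experiment was done once with 2 biological replicates per arm, and a peak list holds no expression values with which to check the labelled lines.

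Most zinc finger genes of chromosome 19 encode transcription factors that read DNA with an array of C2H2 fingers and carry a KRAB domain at the other end. The KRAB domain recruits TRIM28 (KAP1), which in turn brings the histone H3 lysine 9 methyltransferase SETDB1 and heterochromatin proteins to the bound DNA. Many of these proteins silence transposable elements, and the genes arose by repeated local duplication, which left them in clusters along the chromosome. Rb itself has no sequence-specific DNA-binding domain: it reaches promoters chiefly through E2F factors, and phosphorylation by cyclin-dependent kinases releases it. The label of the group held in its proteins. All 246 canonical proteins contained at least 1 C2H2 finger by the spacing of cysteines and histidines, with a median of 13 and a range from 1 to 39, and 208 (84.6%) matched a KRAB box pattern.

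The promoters below stand for the patterns of occupancy described in the following paragraphs. They run from 250 bases before to 50 bases after the RefSeq transcript start (GRCh38.p14), read 5′ to 3′ on the strand of the gene, and capitals mark matches to the core motif of ETS factors, CCGGAA, on either strand. ZNF837 (chr19:58380981-58381280, minus strand) and ZNF790 (chr19:36850743-36851042, minus strand) had an Rb peak in every Rb library. ZNF549 (chr19:57527106-57527405, plus strand) and ZNF787 (chr19:56121246-56121545, minus strand) had one only under INX-315, in both lines. ZNF568 (chr19:36916082-36916381, plus strand) had peaks in Kuramochi libraries and in no OVCAR-3 library. ZNF667 (chr19:56477296-56477595, minus strand) and ZNF91 (chr19:23395422-23395721, minus strand) had none.
ZNF837: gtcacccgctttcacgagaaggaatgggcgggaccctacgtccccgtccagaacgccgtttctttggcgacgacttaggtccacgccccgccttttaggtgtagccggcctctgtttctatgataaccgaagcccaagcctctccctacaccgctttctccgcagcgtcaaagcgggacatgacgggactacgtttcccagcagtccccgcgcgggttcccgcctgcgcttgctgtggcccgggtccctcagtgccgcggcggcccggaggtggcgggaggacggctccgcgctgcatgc
ZNF790: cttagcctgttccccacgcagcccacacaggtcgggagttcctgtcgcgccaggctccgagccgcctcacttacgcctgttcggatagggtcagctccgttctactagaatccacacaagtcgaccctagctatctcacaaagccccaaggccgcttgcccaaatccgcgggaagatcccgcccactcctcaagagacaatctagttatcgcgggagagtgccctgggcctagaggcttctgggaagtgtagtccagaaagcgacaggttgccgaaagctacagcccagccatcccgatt
ZNF549: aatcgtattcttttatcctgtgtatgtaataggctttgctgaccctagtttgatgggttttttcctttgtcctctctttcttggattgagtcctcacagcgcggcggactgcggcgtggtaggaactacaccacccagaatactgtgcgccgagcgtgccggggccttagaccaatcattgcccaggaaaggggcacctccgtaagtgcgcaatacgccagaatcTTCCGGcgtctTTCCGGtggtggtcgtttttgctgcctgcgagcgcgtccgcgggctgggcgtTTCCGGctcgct
ZNF787: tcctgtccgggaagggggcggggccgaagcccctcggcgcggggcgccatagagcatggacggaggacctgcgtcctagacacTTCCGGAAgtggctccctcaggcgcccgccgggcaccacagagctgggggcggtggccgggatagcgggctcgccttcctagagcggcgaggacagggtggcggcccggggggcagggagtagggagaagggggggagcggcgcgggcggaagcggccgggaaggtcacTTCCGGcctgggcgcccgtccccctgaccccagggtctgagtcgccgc
ZNF568: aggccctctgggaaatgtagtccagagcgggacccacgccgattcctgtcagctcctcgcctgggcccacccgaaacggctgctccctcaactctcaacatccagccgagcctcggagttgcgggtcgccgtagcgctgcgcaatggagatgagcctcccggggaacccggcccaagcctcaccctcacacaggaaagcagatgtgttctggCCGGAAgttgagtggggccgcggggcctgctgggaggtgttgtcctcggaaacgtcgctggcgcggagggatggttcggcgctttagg
ZNF667: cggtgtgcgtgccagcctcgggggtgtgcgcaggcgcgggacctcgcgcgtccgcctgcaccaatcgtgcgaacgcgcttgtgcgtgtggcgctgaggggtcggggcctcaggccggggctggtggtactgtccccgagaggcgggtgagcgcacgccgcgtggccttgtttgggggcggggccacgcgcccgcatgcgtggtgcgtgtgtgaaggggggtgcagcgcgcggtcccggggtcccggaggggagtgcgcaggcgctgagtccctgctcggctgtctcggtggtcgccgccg
ZNF91: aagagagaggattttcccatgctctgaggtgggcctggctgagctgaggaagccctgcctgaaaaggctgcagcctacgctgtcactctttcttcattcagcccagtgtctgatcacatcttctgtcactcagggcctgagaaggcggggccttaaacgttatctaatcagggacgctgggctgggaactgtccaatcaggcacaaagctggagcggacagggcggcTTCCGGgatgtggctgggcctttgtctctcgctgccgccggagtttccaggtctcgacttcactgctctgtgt
These sequences differed widely in CpG dinucleotides, with 42 in ZNF667, 33 in ZNF837, 32 in ZNF787, 25 in ZNF549 and in ZNF568, 19 in ZNF790 and 11 in ZNF91.

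The lists differed in length and depth between treatments. The 8 Rb lists held between 5221 and 17281 peaks, of which 396 to 1246 lay on chromosome 19, and the shortest list with INX-315 (13031 peaks) was longer than the longest with DMSO (8794). Depth, given as fragments over an average base and recovered from the caller's own statistics, ran from 0.380 to 0.502 under DMSO and was 0.216 to 0.421 under INX-315. Neither IgG2a list, with 257 and 195 peaks, had a peak on chromosome 19, so 0 of 246 zinc finger promoters carried one. A promoter was taken as 2000 bp before to 500 bp after any transcript start, and it counted as occupied where a peak overlapped it by at least 1 bp.

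Under DMSO, Rb sat at a minority of the zinc finger promoters in every library, and under INX-315 at 50.4% to 74.4% of them. In OVCAR-3 a promoter peak was present at 47 and 61 of the 246 genes in the DMSO libraries and at 124 and 157 in the INX-315 libraries. In Kuramochi the DMSO libraries had 67 and 108 such genes and the INX-315 libraries 183 and 165. The groups of a line did not overlap. As shares, these were 22.0% ± 4.02 (SD, n = 2) and 57.1% ± 9.49 in OVCAR-3, and 35.6% ± 11.8 and 70.7% ± 5.17 in Kuramochi. The increase was 35.2 percentage points over both lines, against an SD between replicates of 8.24 points (exact two-sided permutation test within line, p = 0.0556, which is the smallest p that 36 arrangements can give and cannot pass 0.05). It was 35.2 points in each line taken alone.

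**Figure D1:**
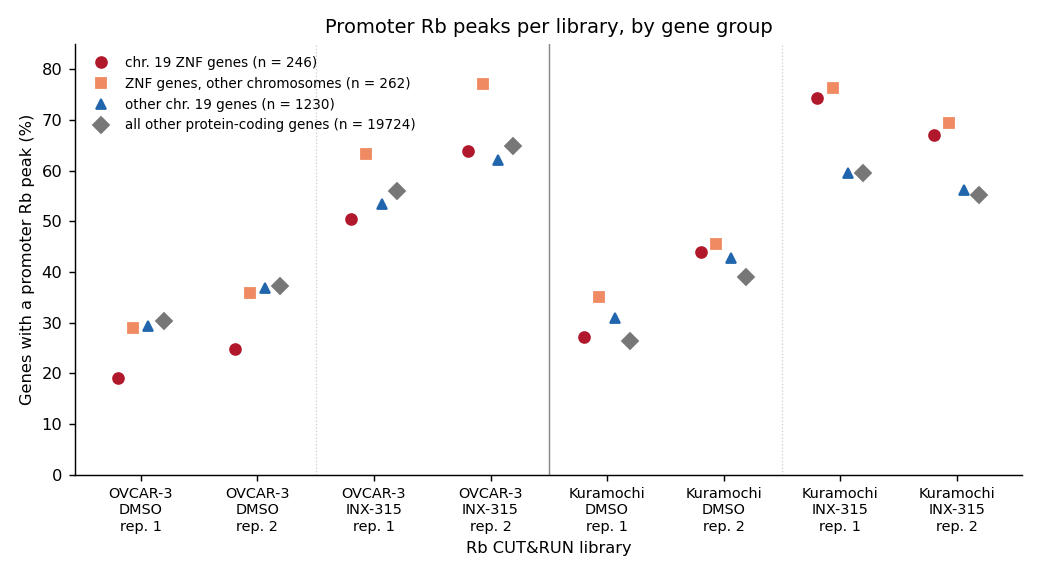
Share of genes with a promoter Rb peak (vertical axis, %) in each of the 8 Rb libraries (horizontal axis), for the 246 zinc finger genes of chromosome 19, 262 ZNF genes of other chromosomes, 1230 other genes of chromosome 19 and all 19724 other protein-coding genes. The zinc finger genes of chromosome 19 lie lowest in all 4 OVCAR-3 libraries except INX-315 replicate 2, where only the other chromosome 19 genes lie lower, and in Kuramochi they lie above the other protein-coding genes in every library.

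Promoters in general gained peaks, so the zinc finger genes were set against other genes in the same library. Over all other protein-coding genes the share rose from 33.7% ± 4.86 to 60.5% ± 6.26 in OVCAR-3 and from 32.6% ± 8.91 to 57.4% ± 3.20 in Kuramochi (SD, n = 2). The log2 odds of a peak, zinc finger genes against these other genes, went from -0.85 ± 0.02 to -0.20 ± 0.18 in OVCAR-3 and from 0.19 ± 0.16 to 0.85 ± 0.17 in Kuramochi. The increase of 0.66 was larger than the SD between replicates of 0.15 (exact two-sided permutation test, p = 0.0556, the smallest possible). Against the other 1230 genes of chromosome 19 it was 0.84 (SD 0.18, same exact permutation p of 0.0556). Against the 262 genes named by the same rule on other chromosomes it was 0.04 (SD 0.17, exact permutation p = 0.944), so no change relative to zinc finger genes elsewhere was detectable with the lists as deposited. With the lists of a line shortened to the length of its shortest one, keeping the peaks of lowest p-value, the increase in share was 3.96 points and that in log2 odds 0.17 against all other genes, 0.19 against chromosome 19 and 0.26 against ZNF genes elsewhere (exact permutation p = 0.0556 for each, the smallest possible).

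A comparison of the lines was added after seeing the data. Relative to all other genes, the zinc finger promoters had fewer Rb peaks in the 4 OVCAR-3 libraries (log2 odds of -0.87, -0.83, -0.33 and -0.07) and more in the 4 Kuramochi libraries (0.08, 0.30, 0.97 and 0.73). The values of the lines did not overlap. Kuramochi exceeded OVCAR-3 by 1.04 under DMSO and by 1.05 under INX-315 (1.04 over both, SD between replicates 0.15, exact two-sided permutation test of the lines within treatment, p = 0.0556, the smallest possible). This difference stayed at 0.93 when all 8 lists were shortened to 1 length. The change with INX-315 did not differ detectably between the lines (-0.01, OVCAR-3 minus Kuramochi, exact permutation p = 1). With the other genes of chromosome 19 as comparator, Kuramochi exceeded OVCAR-3 by 0.72 under DMSO and by 0.85 under INX-315. With ZNF genes of other chromosomes as comparator it did so by 0.46 and 0.69, so the line difference was smaller against zinc finger genes elsewhere. Against those genes the log2 odds were negative in all 8 libraries, so the Kuramochi excess was not seen with this comparator. They were -0.78, -0.76, -0.76 and -0.93 in OVCAR-3 and -0.53, -0.09, -0.15 and -0.16 in Kuramochi (DMSO libraries first). Against the other genes of chromosome 19 they were -0.80, -0.82, -0.17 and 0.10, then -0.25, 0.06, 0.98 and 0.66. Each line was profiled in 1 experiment, so line and experiment cannot be told apart.

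Called gene by gene, with a peak required in both replicates, OVCAR-3 had 42 bound zinc finger genes under DMSO and 122 under INX-315, where 26.8% and 55.5% of all protein-coding genes were bound. Kuramochi had 66 with DMSO and 160 with INX-315, beside 24.8% and 53.2% of all genes. As shares of the 246 these are 17.1% and 49.6% in OVCAR-3 and 26.8% and 65.0% in Kuramochi, below the background in the first line and above it in the second. ZNF genes of other chromosomes had higher shares than the 246 in both lines, 24.8% and 62.6%, then 31.3% and 67.2%. A gene was called gained where the peak was in both libraries with INX-315 and in none with DMSO. In OVCAR-3 56 zinc finger genes (22.8%) were gained against 16.2% of all genes, and in Kuramochi 54 (22.0%) against 14.0%. ZNF genes of other chromosomes were gained in 23.3% and 19.8%. Only genes without a DMSO peak can be gained. Of these, 31.1% of the zinc finger genes were gained in OVCAR-3, beside 27.1% of other protein-coding genes and 38.9% of ZNF genes elsewhere. The Kuramochi shares were 39.4%, 23.3% and 39.1%. No zinc finger gene was lost in either line, and loss was called for 0.00501% of all genes in OVCAR-3 and 0.015% in Kuramochi. Without OVCAR-3 INX-315 replicate 1 the number gained in OVCAR-3 was 91, and without Kuramochi DMSO replicate 2 that in Kuramochi was 93. The number bound under DMSO in Kuramochi was 108 without DMSO replicate 1. With equal list lengths only 6 were gained in each line.

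The genes gained in the lines overlapped in part. Of the 246, 23 were gained in both (9.35%, background 5.56%, ZNF genes of other chromosomes 9.92%). These 23 were 41.1% of the zinc finger genes gained in OVCAR-3 and 42.6% of those gained in Kuramochi. Over all protein-coding genes, 1110 were gained in both lines, out of 3233 gained in OVCAR-3 and 2790 in Kuramochi. Of the 56 genes gained in OVCAR-3, 12 were already bound under DMSO in Kuramochi and 54 had a peak in at least 1 Kuramochi library. Of the 54 gained in Kuramochi, 2 were bound under DMSO in OVCAR-3 and 43 had a peak in some OVCAR-3 library. The counts of gained genes with a peak in the other line were not taken over all genes. A total of 62 zinc finger genes (25.2%) share their promoter window with another protein-coding gene, 24 of them with another zinc finger gene of the group, and for those the gene that a peak belongs to cannot be told. Leaving them out, 34 were gained in OVCAR-3, 37 in Kuramochi and 11 in both. The number gained in both was 38 without OVCAR-3 INX-315 replicate 1 and 35 without Kuramochi DMSO replicate 2.

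Of the 246 genes, 34 (13.8%, background 18.8%) had a promoter peak in all 8 Rb libraries. ZNF524 had the highest mean rank among them. Fold enrichment is the caller's ratio of fragments at the summit to local background, with a constant added to both. It therefore also depends on the depth of a library. At ZNF524 it was 40.1 and 42.1 in the OVCAR-3 libraries with DMSO against 79.9 and 118 with INX-315. The Kuramochi values were 18.1 and 62.4 with DMSO against 97.7 and 52.1 with INX-315, so that the groups overlapped there. Its promoter is shared with FIZ1, itself a zinc finger gene. ZNF837 showed 17.3 and 24.7 with DMSO against 53.8 and 89.6 with INX-315 in OVCAR-3. In Kuramochi its values were 26.0 and 30.6, then 69.5 and 51.7. Neither line overlapped between treatments at ZNF837, whose 29 to 55 fragments at the summit under DMSO became 71 to 148. ZNF790 and ZNF345 lie head to head and were read from the same peak, with 17.6 and 18.3 under DMSO against 51.4 and 62.3 with the inhibitor in OVCAR-3, and 28.1 and 36.7 against 53.2 and 44.1 in Kuramochi. ZNF846 and ZNF324B followed in rank, with 13.1 to 36.1 and 14.5 to 19.7 over the DMSO libraries against 50.8 to 84.4 and 38.7 to 63.7 with INX-315. The ZNF846 summits lay 531 to 747 bp downstream of the nearest transcript start in the 8 libraries, past the 500 bp edge of its window.

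Where a peak was present throughout, its height was greater with INX-315, as it was elsewhere in the genome. In OVCAR-3 fold enrichment was higher in both INX-315 libraries than in both DMSO libraries at 33 of the 34 genes (97.1%, background 95.2%), and in Kuramochi at 28 of the 34 (82.4%, background 90.3%). The median change was 1.47 on the log2 scale in OVCAR-3 and 1.20 in Kuramochi, beside 1.45 and 1.14 over the 3728 other genes with a peak in all 8 libraries. The median percentile rank of the zinc finger peaks within their own lists differed by less than could be told from the replicates (3.21 percentile points higher with INX-315, SD 3.06, exact permutation p = 0.222). It was 47.2 ± 3.96 and 52.9 ± 4.39 in OVCAR-3 and 57.4 ± 1.40 and 58.1 ± 0.723 in Kuramochi (DMSO and INX-315, SD, n = 2).

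The 23 genes gained in both lines mostly had weak peaks. Their mean percentile rank over the 4 INX-315 lists ran from 14.5 to 87.9 with a median of 35.5, and 18 of 23 lay below 50. ZNF549 was the highest, with a fold enrichment of 17.1 and 28.7 in the OVCAR-3 and 31.5 and 24.6 in the Kuramochi libraries with INX-315. Between 29 and 63 fragments covered its summits, which lay -6, 5, 26 and 48 bp from the nearest transcript start, and none of the 4 DMSO libraries had a peak there. ZNF787 followed with 6.66 and 18.0 in OVCAR-3 and 10.6 and 9.57 in Kuramochi. ZNF547, ZNF71, ZNF530 and ZNF587B made up the first 6, with values from 5.07 to 19.3 and from 8 to 33 fragments. ZNF420, also known as APAK and described as a regulator of p53, was gained in both lines at 5.55 and 4.98 in OVCAR-3 and 6.20 and 5.87 in Kuramochi. All 4 of its summits lay 196 to 406 bp upstream. They rested on 11 and 12 fragments in OVCAR-3 and 10 and 7 in Kuramochi. The lowest numbers at zinc finger promoters in the same libraries were 4 and 5, then 4 and 3. At the weaker of these promoters a peak rested on few fragments, so a peak and none may differ by little. The ranks of other genes gained in both lines were not taken for comparison.

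**Figure D2:**
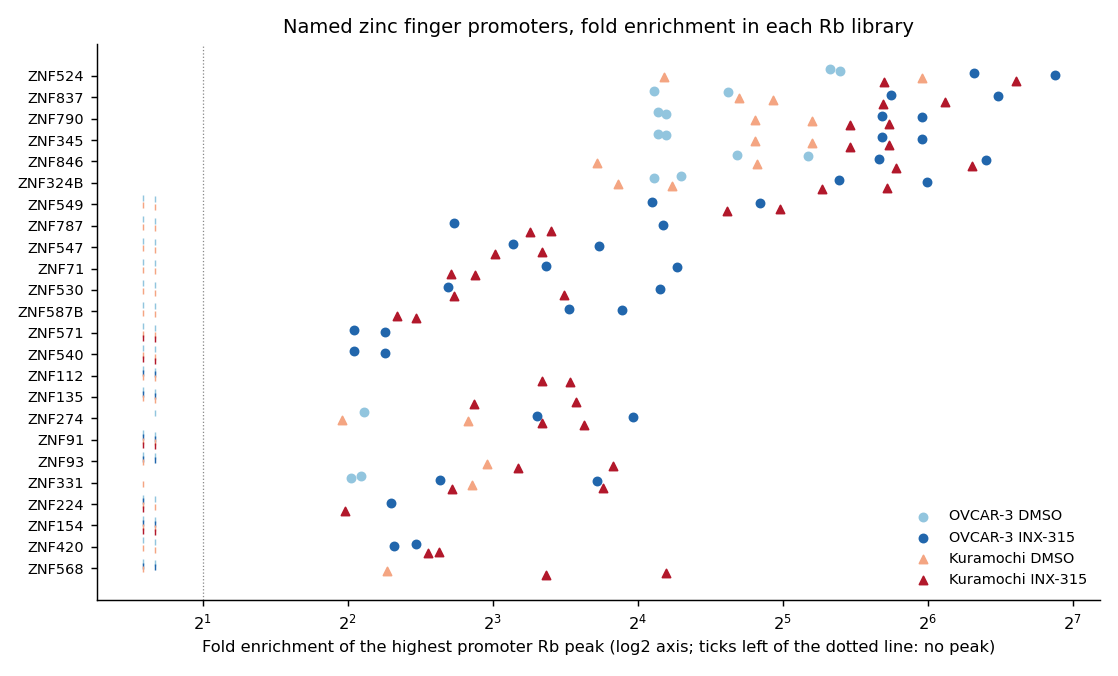
Fold enrichment of the highest promoter Rb peak (horizontal axis, log2 scale) at named zinc finger genes of chromosome 19 (vertical axis), 1 point per library, with circles for OVCAR-3, triangles for Kuramochi, pale for DMSO and dark for INX-315. Ticks left of the dotted line stand for libraries without a peak. ZNF524 to ZNF324B have points of all 8 libraries, whereas ZNF112 and ZNF135 have points of the Kuramochi INX-315 libraries only.

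A group of zinc finger genes had promoter Rb peaks in Kuramochi and none called in OVCAR-3. A missing peak does not mean that Rb was absent. Of the 160 zinc finger genes bound under INX-315 in Kuramochi, 27 had no promoter peak in any OVCAR-3 library. This is 11.0% of the 246, where 1.26% of all protein-coding genes showed the pattern, and 16.9% of those bound against 2.14% over the other genes. The reverse pattern, bound under INX-315 in OVCAR-3 with no peak in any Kuramochi library, was seen in 3 of the 246 (1.22%, background 2.68%). With equal list lengths within a line the first number was 14. Leaving out replicate 2 of OVCAR-3 with INX-315, it was 49. The reverse number became 7 without OVCAR-3 INX-315 replicate 1, 9 without Kuramochi INX-315 replicate 1, 5 without Kuramochi INX-315 replicate 2 and 1 without genes that share a promoter. ZNF genes of other chromosomes had 12 of 262 (4.58%) in the first pattern and 6 (2.29%) in the reverse.

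The genes bound in 1 line only differed widely in peak height. Under the rule for named genes, ZNF112 and ZNF135 were the highest that were gained in Kuramochi without any OVCAR-3 peak, with a fold enrichment of 10.1 and 11.6 at ZNF112 and 11.9 and 7.33 at ZNF135. The OVCAR-3 counterparts were ZNF571 and ZNF540, which share 1 promoter and 1 peak, at 4.12 and 4.78 over 11 and 16 fragments. A stricter count, singled out after the values were seen, took genes with a peak in all 4 Kuramochi and none of the 4 OVCAR-3 libraries. It held 5 zinc finger genes out of 26 in the genome (background 0.13%), and its reverse held none of the 246 (background 0.215%). ZNF582 had a Kuramochi fold enrichment of 10.3 and 10.7 with DMSO and of 40.4 and 24.4 with INX-315. ZNF43 showed 13.1 and 13.8, then 24.2 and 28.0. ZNF302, ZNF544 and ZNF677 ranged from 3.94 to 14.2 under DMSO and from 13.4 to 25.4 under INX-315. Each of these shares its promoter window with another protein-coding gene.

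Of 8 genes with a known role, none had a peak in all 8 libraries, and they ranged from 7 libraries to none. ZNF274, which recruits SETDB1 to the 3′ ends of other zinc finger genes, had a peak in all libraries except OVCAR-3 DMSO replicate 2. Its fold enrichment was 4.31 with DMSO and 9.89 and 15.7 with INX-315 in OVCAR-3, and 3.90 and 7.12, then 10.1 and 12.4, in Kuramochi. ZNF331, an imprinted gene, was occupied in all libraries except Kuramochi DMSO replicate 1, with 4.27 and 4.07 with DMSO against 6.21 and 13.1 with INX-315 in OVCAR-3. In Kuramochi its values were 7.25 in DMSO replicate 2 and 13.5 and 6.58 with INX-315, so that the treatments overlapped. ZNF93, which represses LINE-1 elements, had no peak in OVCAR-3 and 7.77, 14.2 and 9.05 in Kuramochi DMSO replicate 2 and both INX-315 libraries. ZNF568, whose mouse counterpart represses a placental Igf2 transcript, had the same pattern at 4.84, 18.3 and 10.3. It shares its promoter and these peaks with ZNF829. ZNF224, a KRAB repressor of the aldolase A gene, had a peak only in INX-315 replicate 2 of each line, at 4.93 and 3.95 over 6 and 5 fragments. ZNF91, which represses SVA elements, and ZNF154, a gene often methylated in tumours, had no peak in any library.

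**Figure D3:**
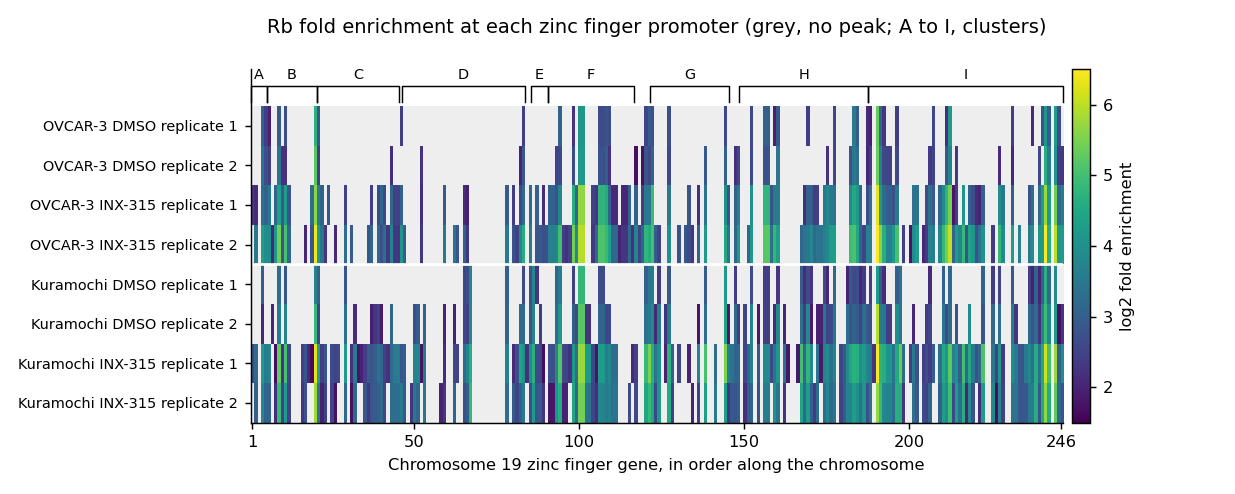
Log2 fold enrichment of the highest promoter Rb peak (colour) at each of the 246 zinc finger genes in their order along chromosome 19 (horizontal axis) in the 8 Rb libraries (vertical axis), with grey for no peak. Brackets A to I mark the 9 clusters. Cluster D holds the widest run of grey, with 19 of its 37 genes unoccupied in every library.

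Occupancy differed along the chromosome. With a new cluster begun where the next gene started more than 1 Mb further on, 235 genes fell into 9 clusters of at least 5, named A to I from the short-arm end, and 11 lay outside. Cluster D (chr19:19668796-24129968, ZNF101 to ZNF254, 37 genes), next to the centromere, was the least occupied of the 9 by the share of genes without any peak. In it 19 genes, ZNF91 among them, had no peak in any library, and the number bound went from 1 to 8 in OVCAR-3 and from 5 to 14 in Kuramochi (DMSO to INX-315). Cluster G (chr19:43525497-45076478, 24 genes) had 9 genes with no peak and went from 3 to 7 in OVCAR-3 and from 5 to 10 in Kuramochi. By contrast, cluster F (chr19:36182276-37817300, ZNF565 to ZNF573, 26 genes) had no gene without a peak, and went from 8 to 19 and from 7 to 20. Of its genes 6 had a peak in all 8 libraries and another 6 were gained in both lines. Among neighbouring genes outside the group, 1 of 3 in cluster D, 11 of 31 in cluster G and 1 of 6 in cluster F had no peak. Over all protein-coding genes 31.2% had no promoter peak in any library.

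The remaining clusters varied by line and treatment. Cluster C (chr19:11483427-12640098, 25 genes) went from 1 to 10 bound genes in OVCAR-3 and from 2 to 18 in Kuramochi. Cluster H (chr19:51571283-53580269, 39 genes) went from 8 to 20 and from 17 to 27, and had no gene gained in both lines. Cluster I (chr19:55476617-58481230, 59 genes) at the end of the long arm went from 13 to 37 and from 21 to 47, and held 10 of the 34 genes with a peak throughout. Cluster B (chr19:7069703-9793180, 15 genes) went from 4 to 8 and from 3 to 9. In clusters C, H, I and B, 2, 7, 8 and 3 zinc finger genes had no peak in any library. Among neighbouring genes outside the group this held for 5 of 13, 11 of 15, 24 of 50 and 24 of 60. The 2 clusters of 5 genes, A and E, had 3 and 2 genes bound in OVCAR-3 with INX-315, and 3 and 4 in Kuramochi.

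**Figure D4:**
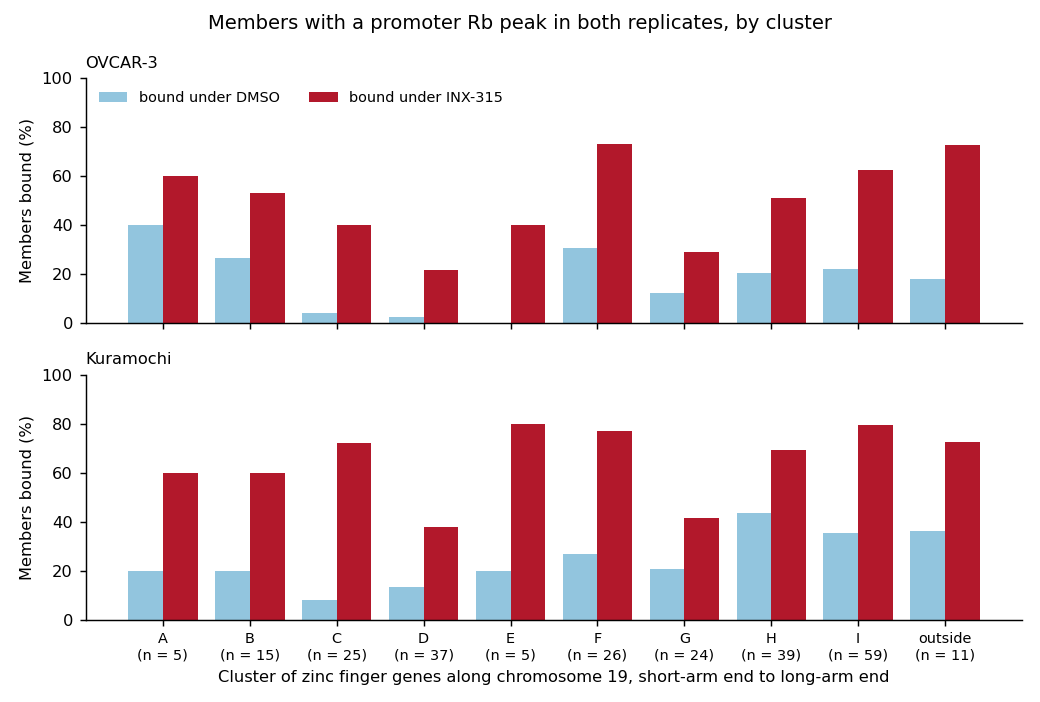
Share of the zinc finger genes of each cluster (horizontal axis, A to I and those outside) with a promoter Rb peak in both replicates (vertical axis, %), for OVCAR-3 above and Kuramochi below, with pale bars for DMSO and dark bars for INX-315. Cluster D has the lowest dark bar in both lines, 21.6% and 37.8%, and clusters F and I stand above 60% in both.

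The local background that the caller set each peak against also varied along the chromosome. Relative to the genome-wide mean of each library, its median over the peaks lying in a cluster was 3.03 to 4.48 in cluster E and 2.93 to 3.19 in cluster F in OVCAR-3, and at most 1.78 in the other clusters of that line. In Kuramochi it was 2.83 to 3.60 in cluster G, 2.27 to 2.86 in cluster F, 1.89 to 2.63 in cluster E and at most 1.98 elsewhere. A higher background asks more fragments of a peak. In cluster D the median background was at most 1.03 in OVCAR-3 and 1.08 in Kuramochi. The part of the background in the differences between clusters was not tested.

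The 49 genes (19.9%, background 31.2%) without a peak in any library had fewer CpG dinucleotides. A RefSeq promoter sequence was matched for 216 of the 246 genes, and for 40 of these 49. The median number of CpGs in 300 bases was 14 for the genes without a peak, 22.5 for those with a peak in all 8 libraries, 22.5 for those gained in both lines, and 20 over all 216. The median was 10 in cluster D and 22 in cluster F. Zinc finger genes with 10 or fewer CpGs lacked a peak in every library in 10 of 23 cases (43.5%), and those with more than 30 in 1 of 22 (4.55%). Over other protein-coding genes these shares were 72.4% and 6.21%. The zinc finger gene with more than 30 CpGs and no peak was ZNF667. It was followed among the unoccupied genes by ZNF835, ZNF528 and ZNF614 with 29, 27 and 23 CpGs. Repeated sequence moved the same way. At least 1 word of 50 bases in the promoter occurred again on chromosome 19 in 11 of the 49 genes without a peak (22.4%) and in 1 of the 34 with a peak throughout (2.94%), and the highest share of such words in any of the 246 promoters was 44.6%, at ZNF28 and ZNF468, which both had peaks. Among the genes without a peak it was 27.5%, at ZNF208. The part of CpG number and of repeated sequence in the absence of peaks was not tested.

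**Figure D5:**
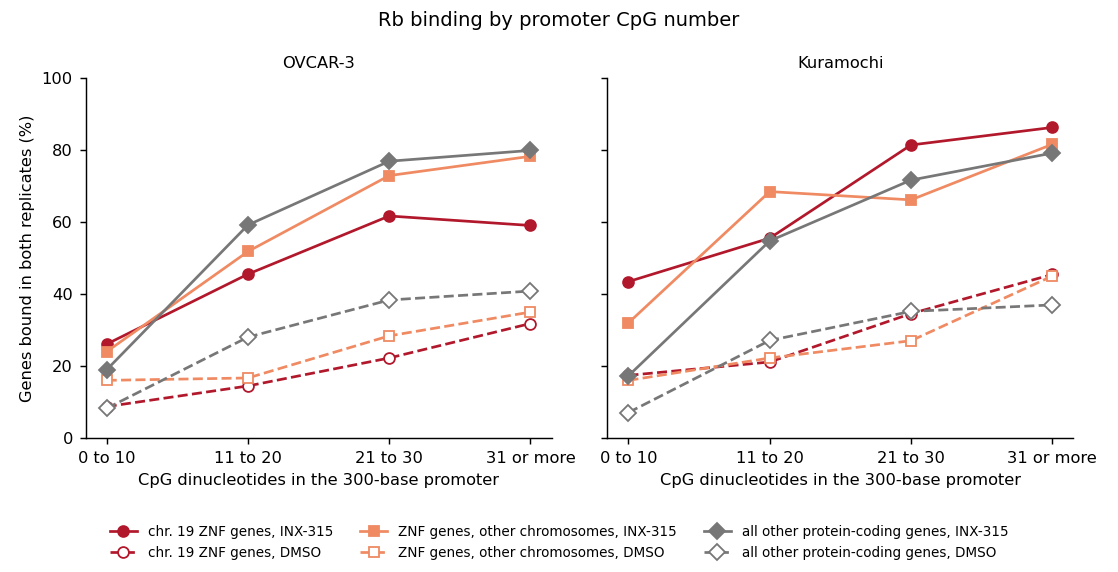
Share of genes with a promoter Rb peak in both replicates (vertical axis, %) by the number of CpG dinucleotides in the 300-base promoter (horizontal axis), for OVCAR-3 on the left and Kuramochi on the right, with solid lines for INX-315 and broken lines for DMSO. The zinc finger genes of chromosome 19 lie below the other protein-coding genes in OVCAR-3 wherever the promoter has more than 10 CpGs, and at or above them in Kuramochi under INX-315 at every CpG number.

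In every range of CpG number, zinc finger genes were bound more often in Kuramochi than in OVCAR-3, and other protein-coding genes less often. Whether the zinc finger genes lay below or above the other genes of a line varied with range and treatment. Among genes with 21 to 30 CpGs, 50 of 81 zinc finger genes (61.7%) were bound under INX-315 in OVCAR-3 against 77.0% of 3942 other genes, and 66 of 81 (81.5%) against 71.7% in Kuramochi. With 10 or fewer CpGs the zinc finger genes were bound in 6 of 23 cases (26.1%) in OVCAR-3 and 10 of 23 (43.5%) in Kuramochi, where 809 and 737 of 4267 other genes were bound. These shares are descriptions over genes, which are not replicates.

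The zinc finger promoters often held the ETS core. CCGGAA on either strand was present in 121 of 216 promoters (56.0%), 45.1% of those of ZNF genes on other chromosomes, 22.6% of those of other protein-coding genes and 17.6% of all 27195 promoters of the table. Its share was 59.4% in genes with a peak throughout, 45.0% in those gained in both lines and 65.0% in those without a peak, and so did not follow occupancy. Of its 152 matches 73.7% lay within 50 bases of the start, against 47.0% in other genes. The E2F consensus, searched on both strands as TTTCCCGC, TTTCGCGC, TTTGCCGC and TTTGGCGC, was found in 17 promoters (7.87%, beside 4.45% of other genes and 3.34% of all promoters). It was in 3 of the 32 sequences with a peak throughout, 3 of 20 gained in both lines and 4 of 40 without a peak. The cell cycle homology region TTTGAA was in 22 (10.2%, all promoters 15.4%) and the NRF1 core GCATGCGC in 9 (4.17%, all promoters 3.28%). A match is only a string of letters in this window, and no match says nothing about the factor.

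Genes without a KRAB box were occupied more often. Of the 38 such genes, 13 (34.2%) had a peak in all 8 libraries and 4 (10.5%) in none, whereas of the 208 with a KRAB box 21 (10.1%) had one throughout and 45 (21.6%) in none. Bound genes went from 13 to 26 of 38 in OVCAR-3 and from 18 to 30 of 38 in Kuramochi without the box, and from 29 to 96 and from 48 to 130 of 208 with it. The median CpG number was 24 without and 19 with the box, and its part in this contrast was not tested. The number of fingers was alike in genes with a peak throughout (median 12.5) and without any (13).

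Within most occupied promoters, Rb sat near a transcript start. The summit lay within 250 bp of a start in 82.1% to 92.1% of occupied zinc finger promoters over the 8 libraries, against 73.0% to 79.3% for other genes. The median peak width was 406 to 691 bp at zinc finger genes and 532 to 1003 bp at other genes, and it was narrower in each of the 8 libraries. Peaks in gene bodies, outside the promoters of all genes, were few here and in the rest of the genome. No zinc finger gene had such a peak in both libraries of either DMSO group or of OVCAR-3 with INX-315, beside 0.491% (OVCAR-3 DMSO), 0.551% (Kuramochi DMSO) and 2.34% (OVCAR-3 INX-315) of all protein-coding genes. The 2 that did in Kuramochi with INX-315 (background 2.38%), ZNF552 and ZNF586, overlap each other and share the peak, with a fold enrichment of 7.31 and 7.09, and the number was 10 without Kuramochi INX-315 replicate 1 and 7 without replicate 2. With promoters drawn around the canonical transcript alone, these counts were 2, 5, 3 and 8 in the order OVCAR-3 DMSO, OVCAR-3 INX-315, Kuramochi DMSO and Kuramochi INX-315.

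The partners through which KRAB proteins repress were examined as a list of 16 genes. The number with a promoter peak in both replicates went from 7 to 14 of 16 in OVCAR-3, beside 26.8% and 55.5% of all genes. In Kuramochi it went from 7 to 13 of 16, beside 24.8% and 53.2%. Gained genes numbered 3 (OVCAR-3) and 2 (Kuramochi) of 16 (background 16.2% and 14.0%). With equal list lengths the numbers bound under INX-315 were 8 and 6, and without Kuramochi DMSO replicate 1 the number bound under DMSO in that line was 11. The heterochromatin protein genes CBX1, CBX3 and CBX5, the silencing ATPase gene MORC2 and the histone chaperone gene DAXX were the 5 with a peak in all 8 libraries. TRIM28 and SETDB1 were bound in neither line and under neither treatment. TRIM28 had no promoter peak in any library, and SETDB1 had 1, in Kuramochi INX-315 replicate 1, with a fold enrichment of 6.33.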

How the data were processed

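Rb CUT&RUN libraries of OVCAR-3 and Kuramochi cells (8 Rb and 2 IgG2a libraries) were analysed from the peak lists deposited for each library. After trimming, the authors used Bowtie2 (v2.3.4.1) for alignment to hg38, removed mitochondrial and blacklisted reads, kept duplicates and called peaks per library with MACS2 (v2.2.7.1, paired-end fragments, q-value threshold of 0.05) against the IgG2a library of the line. Tools and build are named in the submitters' processing notes. How reads with several alignments were treated is not given in the sources used here, so values of near-identical gene copies are uncertain. Each deposited list gives a fold enrichment, a linear ratio computed by the authors' caller, and a −log10 p-value and −log10 q-value, also written by the authors' caller. Fragments and local background at a summit were recovered from fold enrichment and p-value (relative tolerance 3e-05, 98.6% to 99.9% of Rb peaks with a single whole number). The lists hold no read totals, and the most frequent background of a library served as its depth.

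Promoters (2000 bp before to 500 bp after every transcript start, GENCODE release 44, same build; every peak on chromosome 19 ended within the reference sequence) were intersected with the peaks (minimum overlap 1 bp). The highest peak by fold enrichment stood for a gene, and ranks are percentiles of fold enrichment within a list. Groups and replicate numbers came from the labels. For values per library the group labels were permuted within line (exact, two-sided, 36 arrangements), and odds had 0.5 added to each cell. p-values measure the spread between these libraries only. Counts of genes were not tested, since 2 libraries against 2 cannot reach significance for a single promoter. The deposited lists hold no reads for the count-based DiffBind test that the study used. Same-numbered libraries did not deviate together (correlation of deviations from group means over 19970 genes of -0.03 in OVCAR-3 and 0.02 in Kuramochi). No 2 of the Rb lists were identical.

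Named genes were the 6 of highest mean rank with a peak throughout, the 6 of highest rank gained in both lines, the 2 highest gained in 1 line without a peak in the other, the 4 unoccupied genes richest in CpG, and a list of 8 with a known role. Fingers and KRAB boxes were counted by pattern in translations of the canonical coding sequences, and promoter sequences came from RefSeq (GRCh38.p14). Members and lists were chosen with earlier results of these data known. The overlap, permutation and recovery steps were tested on simulated data. Python 3.11.15 with numpy 2.4.6, pandas 2.3.3 and scipy 1.17.1 was used. Alternatives were a stricter q-value (0.001), equal list lengths, summits, narrower (500 bp each side) or canonical promoters, peaks over IgG2a peaks left out, shared promoters left out, each library left out, and a replicate block. The comparison of the lines and the counts of genes bound in 1 line were added after seeing the data.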

Additional observations from a re-analysis of the deposited data

How the results depend on the processing

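Of the settings tried, list length mattered most. With equal list lengths within a line, by construction, the members bound under INX-315 numbered 47 in OVCAR-3 and 64 in Kuramochi, 6 were gained and 2 lost in each line, 1 was gained in both, 134 had no peak in any library, and 14 were bound under INX-315 in Kuramochi without an OVCAR-3 peak. The cofactor genes bound under INX-315 then numbered 8 in OVCAR-3 and 6 in Kuramochi, the body peaks of Kuramochi with INX-315 fell from 2 to 0, and the difference in median percentile rank reversed to -4.18. The log2 odds against ZNF genes of other chromosomes were then 0.26 (p = 0.0556 by exact permutation, the smallest possible) and not 0.04. All 8 lists at equal length gave line differences of 11.4 points and 0.93 log2 odds. Without genes that share a promoter, which leaves 184 of 246, 78 were bound under INX-315 in OVCAR-3, 34 gained there, 11 gained in both lines, 21 occupied throughout and 1 bound under INX-315 in OVCAR-3 alone, and the log2 odds against ZNF genes of other chromosomes reversed to -0.041. With a q-value of at most 0.001, 6 were bound in OVCAR-3 alone, and with the summit in the promoter 1 was lost in Kuramochi. Canonical promoters gave body peaks at 2, 5, 3 and 8 members (OVCAR-3 DMSO and INX-315, then Kuramochi DMSO and INX-315).

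Leaving out 1 library at a time gave 31.0 to 39.3 points for the share, 0.59 to 0.72 for the log2 odds, 0.76 to 0.92 and -0.070 to 0.15 against chromosome 19 and other ZNF genes, 1.66 to 4.77 for rank, and 9.45 to 17.8 points and 0.98 to 1.11 between the lines. A group of 1 library counts a gene as bound from it alone, so counts could only rise for bound genes. Bound under DMSO ran from 42 to 61 (OVCAR-3) and 66 to 108 (Kuramochi), under INX-315 from 122 to 157 and 160 to 183, gained from 56 to 91, 54 to 93 and 23 to 38 in both lines, lost from 0 to 0 and 0 to 1, occupied throughout from 34 to 42 and in no library from 49 to 57. Genes bound in 1 line ran from 3 to 9 (OVCAR-3) and 27 to 49 (Kuramochi), body peaks from 0 to 1, 0 to 2, 0 to 5 and 2 to 10 in that order, and cofactors likewise from 7 to 9, 14 to 14, 7 to 11 and 13 to 15. In a fit with the replicate block (paired by number, 16 sign flips) the share rose by 35.2 points with p = 0.125 by exact permutation, the smallest it allows, and the other p-values were 0.125, 0.125, 0.875 and 0.5 for unchanged differences. The narrower promoters and the removal of peaks over IgG2a peaks moved no count by over 1.5 times. Depth limits the weakest peaks, which rest on 3 to 7 fragments.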
